A study of Mus musculus with 4 samples.

Results

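The cytosolic ribosomal protein genes were described on 4 arrays of the mouse monocyte-macrophage line J774. Members were chosen by name alone. They were the genes whose symbol begins with Rpl or Rps and a digit, or with Rplp, without the ubiquitin fusion gene *Rps27a*, the Rps6k kinase genes and pseudogenes. This gave 84 genes out of 20144 that could be named, with 52 of the large and 32 of the small ribosomal subunit, and 166 of 26581 named probes. The cells had been kept for 4 hours with 1 µM MG132, with 1 µM epoxomicin, with 1 µM ONX0914 or with DMSO, the solvent, and each culture gave RNA for 1 single-color array. MG132 and epoxomicin inhibit the proteasome, and ONX0914 is aimed at its β5 and β5i subunits. The treatment label of the last array reads ONX-0912, whereas the title gives only ONX and the treatment protocol and the Methods name ONX0914, so that the array carries this name here with that reservation. With 1 array per condition, no difference has a replicate check and none has a P value. J774 is a single tumor-derived line, and a bulk RNA measurement of it cannot tell fewer cells of a type from less RNA per cell.

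Ribosomal proteins are the protein part of the ribosome, in which the small subunit reads the mRNA and the large subunit joins amino acids. They are made in equal numbers, are imported into the nucleolus and are built onto ribosomal RNA there, and copies that find no place in a subunit are degraded by the proteasome. Their mRNAs are among the most abundant of a growing cell. Most of them begin with a run of pyrimidines, the terminal oligopyrimidine tract, through which the mTOR pathway controls their translation. Ribosomal proteins that are free of ribosomes can also bind Mdm2, the ubiquitin ligase of p53.

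Brightness is given as the processed signal, which is the intensity of a spot after the scanner software took off the background. Differences are given on the log2 scale after the 75th percentile of the array was subtracted, always as inhibitor minus DMSO. Where values follow each other without a name, signals stand in the order DMSO, MG132, epoxomicin and ONX0914, and differences in the order MG132, epoxomicin and ONX0914. The percentile lay at 1647 signal units in DMSO, and at 1448 under MG132, 1669 under epoxomicin and 1603 under ONX0914. Of the 84 members, 80 were well above background on all 4 arrays, 1 on some and 3 on none. A comparison could be made for 81. No spot was saturated, and no spot of a member was marked as an outlier. All 7 macrophage markers with a probe were well above background on all 4 arrays, whereas 11 of 18 markers of other cell types were so on none, 5 on all and the rest on some. The summed signal of the macrophage markers was 407339 in DMSO, 299683 under MG132, 338737 under epoxomicin and 382378 under ONX0914. That of the other markers was between 6285 and 7600. The part of these markers in the values of the members was not tested.

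Ribosomal protein genes stayed close to DMSO with every inhibitor while the rest of the transcriptome spread widely. The median difference of the members was 0.097 under MG132, 0.022 under epoxomicin and 0.031 under ONX0914. The medians of all genes compared were -0.023, -0.038 and -0.0058. The members' median was above that of all genes by 0.12, 0.060 and 0.037. The sign of the median itself depended on the setting. It ranged from -0.088 to 0.252 for MG132, from -0.057 to 0.184 for epoxomicin and from -0.026 to 0.170 for ONX0914. The members' median was above that of all genes in each of the 15 settings tried with each inhibitor. A shift of a whole array moves both medians nearly alike, so such settings could hardly change this order. With ONX0914 the margin was 0.0018 after normexp background correction with outlier spots left out of the fit, and 0.0072 after cyclic loess. Some settings move all members of an array alike. Leaving out the scaling lowered every difference of MG132 by 0.19, a shift to the array median lowered those of MG132 by 0.10 and of epoxomicin by 0.079, and a percentile over detected spots lowered those of ONX0914 by 0.057. The sign of a smaller difference therefore holds for the 75th percentile only, while the order of the members on an array does not depend on such a shift.

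Few members passed a threshold of 0.32 on the log2 scale, which is 25% higher or lower by the same factor. With MG132, 5 members were at least 0.32 higher, where 25.1% of all genes were, and 1 was lower, where 26.1% of all genes were. With epoxomicin, 2 members were higher and 1 lower, against 25.9% and 27.4% of all genes. With ONX0914, 1 member was higher and 0 lower, against 15.9% and 15.1% of all genes. The shares of members that lay within 0.32 were 92.6%, 96.3% and 98.8% of 81. Over all genes they were 48.8%, 46.6% and 68.9%. Of the 15 translation factors described below, 100%, 93.3% and 93.3% lay within 0.32, so that a narrow spread was not particular to the members. No member was 2-fold higher or lower with any inhibitor. Among all genes, 7.24% were 2-fold higher and 3.69% lower with MG132, 8.49% and 4.41% with epoxomicin, and 3.27% and 1.4% with ONX0914. The SD over the members was 0.168 under MG132, 0.162 under epoxomicin and 0.101 under ONX0914, and over all genes it was 0.725, 0.794 and 0.50.

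**Figure D1:**
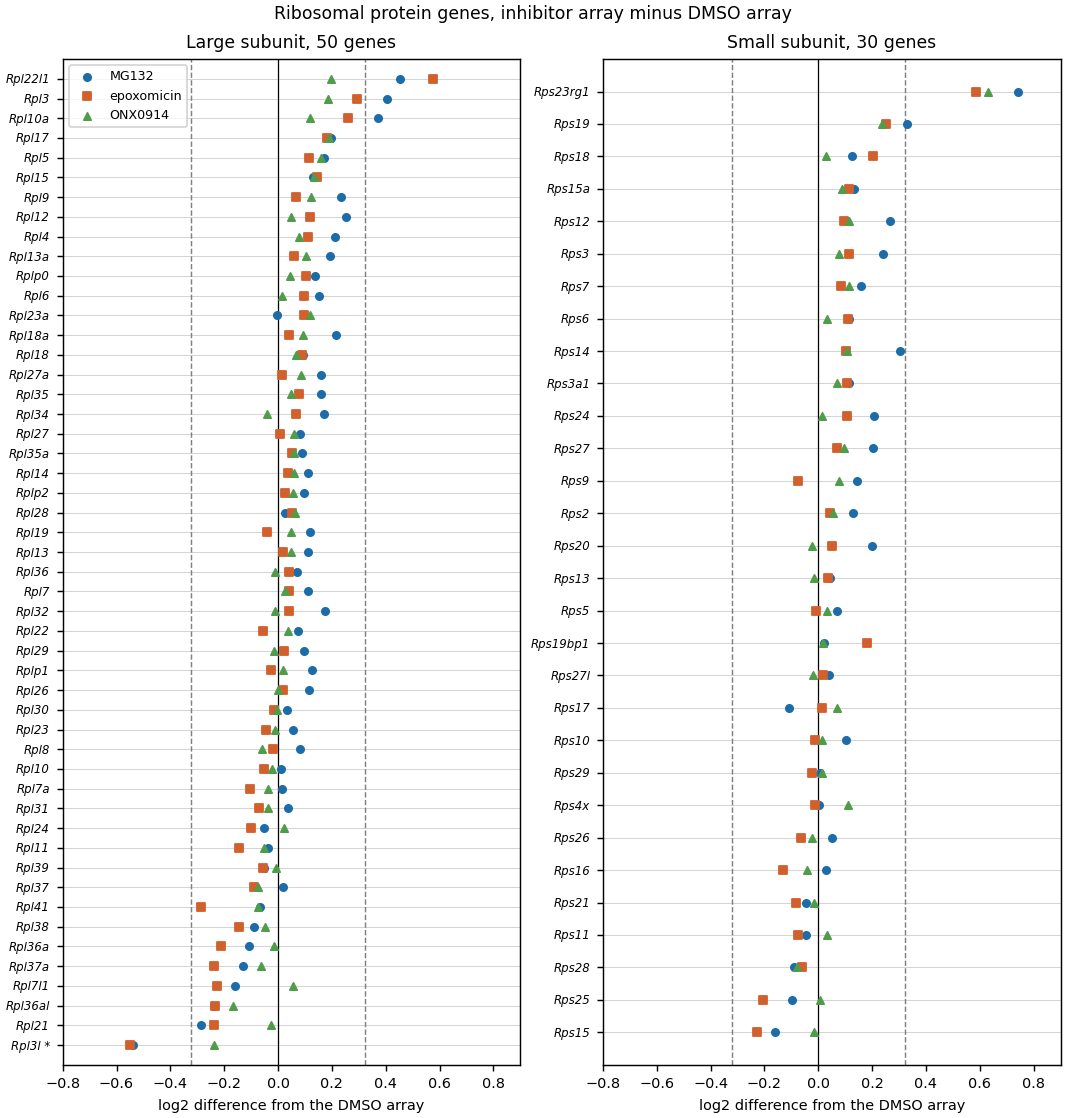
Log2 difference from the DMSO array of 50 large and 30 small subunit genes, 1 row per gene (1 further gene that could be compared is not shown), with a circle for MG132, a square for epoxomicin and a triangle for ONX0914 and dashed lines at -0.32 and 0.32. Nearly all points lie between the dashed lines, with *Rps23rg1* and *Rpl22l1* to the right of them, and the asterisk marks *Rpl3l*, whose difference is a bound.

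The medians of the large and the small subunit lay close to each other. Large subunit genes had medians of 0.095 under MG132, 0.019 under epoxomicin and 0.032 under ONX0914. Small subunit genes had medians of 0.116, 0.035 and 0.031. The difference between the subunits, large minus small, was -0.020, -0.016 and 0.00089. It lay between -0.054 and 0.011 in all settings with all inhibitors. These groups count by name the paralogs and also *Rps19bp1* and *Rps23rg1*, which encode no ribosomal subunit. Without all of these, the difference between the subunits was -0.019, -0.0012 and 0.00081. The 10th and 90th percentiles with MG132 were -0.11 and 0.22 for the large subunit and -0.091 and 0.27 for the small subunit, so that the ranges lay over each other. Of the 81 members, 37 were above DMSO with all 3 inhibitors, 12 below with all 3 and 32 on both sides. Among all genes, 4294 of 13462 were above with all 3 and 5067 below. The 3 comparisons share the DMSO array, and the counts of members moved to 15 above and 26 below without scaling.

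MG132 was above epoxomicin in 71 of 81 members (87.7%), against 49.9% of all genes, but this order followed the scaling, with 43 members after quantile normalization and 2 without scaling. Both inhibitors had been used at the same dose and time. The difference between them was not tested, with 1 array each.

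The spread was narrower without the paralogs. Leaving out 8 paralogs (*Rpl3l*, *Rpl7l1*, *Rpl10l*, *Rpl22l1*, *Rpl36al*, *Rpl39l*, *Rps27l* and *Rps4l*) and *Rps19bp1* and *Rps23rg1*, which carry such names but encode no ribosomal subunit, left 74 genes, 46 large and 28 small. Of these, 71 were within 0.32 with MG132, and 74 with epoxomicin and with ONX0914. Their medians were 0.11, 0.024 and 0.031. Their lowest and highest differences were -0.28 and 0.41 with MG132, -0.29 and 0.30 with epoxomicin, and -0.079 and 0.24 with ONX0914.

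The start sites of the members are shown because they bear the feature by which the family is known. The RefSeq promoter table (GRCm38.p6) held 64 of the 84 members, and each window runs from 250 bases before to 50 after the annotated start. The lines below give 40 bases before and 30 from the start on, 5′ to 3′ on the strand of the gene, for 3 members with a CTTTC near the start and for 2 paralogs that were the most distant from DMSO among those well measured and have none. Capitals mark CTTTC. The regions are chr2:39005102-39005171 (minus strand) for *Rpl35*, chr11:114668540-114668609 (plus strand) for *Rpl38*, chr3:90213619-90213688 (minus strand) for *Rps27*, chr3:28805468-28805537 (plus strand) for *Rpl22l1* and chr12:69184038-69184107 (minus strand) for *Rpl36al*, each across the start of the gene's transcript.
Rpl35: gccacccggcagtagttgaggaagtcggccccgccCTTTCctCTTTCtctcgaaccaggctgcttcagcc
Rpl38: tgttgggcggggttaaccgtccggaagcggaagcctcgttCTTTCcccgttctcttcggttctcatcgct
Rps27: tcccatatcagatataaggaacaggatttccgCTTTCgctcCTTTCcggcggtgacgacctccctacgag
Rpl22l1: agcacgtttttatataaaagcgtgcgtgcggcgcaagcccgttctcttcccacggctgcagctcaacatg
Rpl36al: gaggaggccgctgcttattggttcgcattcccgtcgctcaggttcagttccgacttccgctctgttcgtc

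In *Rpl38* the CTTTC begins at the annotated first base. CTTTC on the strand of the gene, from 20 bases before to 30 after the start, was found in 22 of 64 members (34.4%) and in 7.66% of 27025 promoters. CGGAAG, the core of sites bound by Ets family factors, was found on either strand of the whole window in 43 members (67.2%) and in 18.8% of all promoters. TATAAA, on either strand of the whole window, was in 7 members (10.9%) and in 15.7% of all promoters. In the window used for CTTTC, it was in 3 members (4.69%) and in 0.973% of all promoters, so that the direction depended on the window. In all, 12 strings were searched in both ways, and the ones given were picked after the shares had been seen. CTCTTTC as well as CTTTCC and then CTTTCT and also CCTTTC hold CTTTC, and CTCTTT overlaps it, as does TTTCC in part. The letters CCGGAAG hold CGGAAG, whereas CTTCC with its neighbor TTCCGG overlaps the complement. A match is a description of letters, and a window without CTTTC may still hold a pyrimidine run of other letters. The median difference with MG132 was 0.13 for 21 compared members with CTTTC and 0.043 for 41 without. With epoxomicin the medians were 0.060 and -0.042, and with ONX0914 they were 0.063 and 0.014. The ranges from the 10th to the 90th percentile overlapped with each inhibitor (0.026 to 0.25 and -0.13 to 0.23 with MG132), and the difference was not tested.

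By the median of its 3 differences, *Rpl22l1* was the ribosomal protein gene most distant from DMSO among those with a bright probe. It encodes a paralog of Rpl22, a large subunit protein that is dispensable for general translation and represses its paralog. The signal of *Rpl22l1* was 36745 in DMSO, 44308 under MG132, 55535 under epoxomicin and 40946 under ONX0914. It was lowest with DMSO and highest with epoxomicin. The differences were 0.46 with MG132 (1.37-fold), 0.58 with epoxomicin (1.49-fold) and 0.20 with ONX0914 (1.15-fold). They were above 0 in every setting, between 0.27 and 0.61 with MG132, 0.50 and 0.71 with epoxomicin, and 0.14 and 0.34 with ONX0914. Its parent *Rpl22* had signals of 162698, 150721, 158799 and 162438 in the same order, and differences of 0.075, -0.055 and 0.037. The parent was thus near DMSO on all arrays on which its paralog was above it.

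*Rpl3* lies near the peptidyl transferase center of the large subunit. Its signal was 117987 in DMSO, 137548 under MG132, 146744 under epoxomicin and 130660 under ONX0914. DMSO was the lowest array, and the differences were 0.41, 0.30 and 0.19. *Rpl10a* encodes the protein of the L1 stalk, which guides the leaving tRNA. Its signal was 268835 in DMSO, 305694 under MG132, 326636 under epoxomicin and 284346 under ONX0914, with differences of 0.37, 0.26 and 0.12. *Rps19*, a small subunit gene known from Diamond-Blackfan anemia, had signals of 83451, 92127, 100699 and 95706, and differences of 0.33, 0.25 and 0.24. All 3 genes passed 0.32 with MG132 only, and DMSO was the lowest array in each. With MG132, *Rpl3* ranged from 0.22 to 0.59 over the settings, *Rpl10a* from 0.19 to 0.53 and *Rps19* from 0.14 to 0.46. In the same order, the highest values over the settings were 0.51, 0.45 and 0.36 with epoxomicin and 0.36, 0.26 and 0.36 with ONX0914. Which inhibitors passed 0.32 therefore depended on the setting.

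*Rps23rg1* had the largest differences by name. It arose as a retrotransposed copy of *Rps23* and does not encode the ribosomal protein, and *Rps23* itself had no named probe and was not analysed here. Its signal was 517 in DMSO, 759 under MG132, 787 under epoxomicin and 779 under ONX0914. All 3 inhibitor arrays were above DMSO, by 0.74, 0.59 and 0.63. With the 75th percentile as the scaling, it was the only member above 0.32 with ONX0914. Its differences ranged from 0.29 to 0.77, from 0.18 to 0.65 and from 0.22 to 0.64 over the settings, so that it did not pass 0.32 in all of them. *Rps19bp1*, which encodes a protein that binds Rps19 and Sirt1, had signals of 10339, 9219, 11873 and 10171 and differences of 0.020, 0.18 and 0.016.

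At the other end, *Rpl36al* was below DMSO on every array. It is a paralog of *Rpl36a*, and both encode a large subunit protein at the tRNA exit site. Its signal was 53250 in DMSO, 39761 under MG132, 45855 under epoxomicin and 46181 under ONX0914, and DMSO was the highest array. The differences were -0.24, -0.24 and -0.17, and they stayed below 0 in every setting (-0.42 to -0.11 with MG132, -0.31 to -0.053 with epoxomicin, -0.24 to -0.059 with ONX0914). *Rpl36a* had signals of 97811, 79906, 85680 and 94150 and differences of -0.11, -0.21 and -0.016. By these probes parent and paralog were both below DMSO with this scaling, but with ONX0914 the other 2 *Rpl36a* probes gave 0.071 and 0.12.

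The remaining members with the lowest medians were *Rpl21*, *Rps15*, *Rpl7l1* and *Rpl37a*. *Rpl21*, of the large subunit, had signals of 708 in DMSO, 511 under MG132, 609 under epoxomicin and 678 under ONX0914, and differences of -0.28, -0.24 and -0.025. Its second probe, with signals of 69.8, 64.1, 78.2 and 79.2, gave 0.062, 0.14 and 0.22, so that the direction of *Rpl21* depended on the probe. *Rps15*, at the head of the small subunit, had signals of 109886, 86465, 95161 and 105639 and differences of -0.16, -0.23 and -0.018. *Rpl37a*, a zinc-binding protein of the large subunit, had signals of 371662, 298711, 319430 and 346491 and differences of -0.13, -0.24 and -0.062. The signals of *Rps15* and *Rpl37a* were highest with DMSO and lowest with MG132, and their differences from DMSO were largest with epoxomicin after scaling.

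Paralogs of other ribosomal proteins were compared with their parents. *Rpl7l1*, whose product works in the nucleolus, had signals of 1706, 1343, 1480 and 1726 and differences of -0.16, -0.22 and 0.056. Its parent *Rpl7* had signals of 226136, 215116, 235617 and 224256 and differences of 0.11, 0.040 and 0.027. With this scaling the genes lay on opposite sides of DMSO with MG132 and epoxomicin and on the same side with ONX0914. *Rps27l*, a target of p53, had signals of 92451, 83577, 94748 and 88674 and differences of 0.039, 0.016 and -0.021, and *Rps27* had 215760, 218437, 229690 and 224505 and differences of 0.20, 0.071 and 0.096. Neither of them passed 0.32.

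The other 4 paralogs were at or near the background. *Rpl3l*, the muscle form of *Rpl3*, was well above background on 2 arrays only, those of DMSO and ONX0914. Its signal was 29.4 in DMSO, 14.5 under MG132, 17.1 under epoxomicin and 24.3 under ONX0914. With this scaling it was at least 1.45-fold lower with MG132 and at least 1.46-fold lower with epoxomicin, and differed by -0.24 with ONX0914. These bounds set the lower signal to the dimmest spot well above background, and they are the only differences below -0.32 among the members. Over the settings, *Rpl3l* ranged from -1.62 to -0.36 with MG132, from -1.52 to -0.26 with epoxomicin and from -1.62 to -0.24 with ONX0914. *Rpl10l* and *Rpl39l*, which are known from testis, and *Rps4l* were well above background on no array, with signals of 9.8 to 17.0, 3.2 to 4.3 and 7.4 to 13.1, and no fold is given. Their parents were measured on all arrays. *Rpl10* had signals of 393981, 349534, 384945 and 377442 and differences of 0.012, -0.053 and -0.023. *Rpl39* had signals of 155968, 132209, 151969 and 151104 and differences of -0.053, -0.057 and -0.0066. *Rps4x* had signals of 111342, 98056, 111826 and 117086 and differences of 0.0017, -0.013 and 0.11. None of the 3 parents was beyond 0.32.

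**Figure D2:**
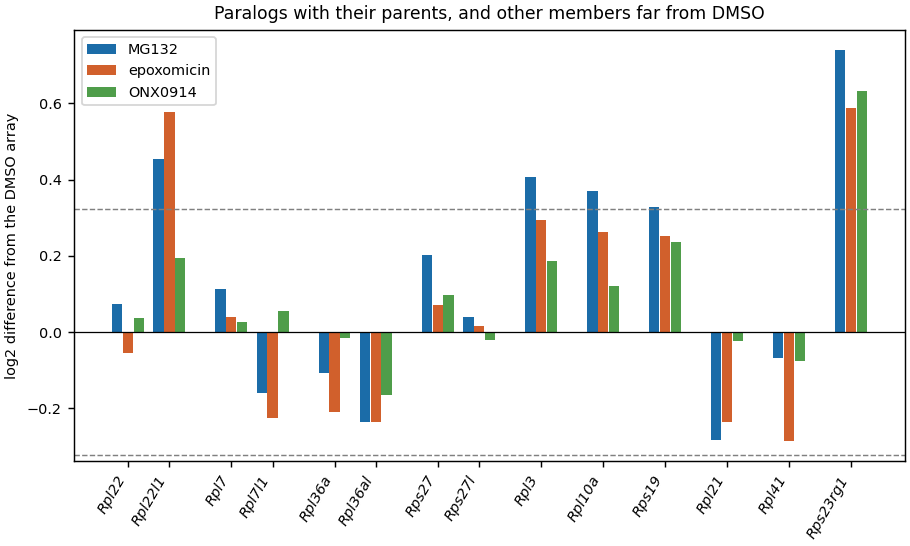
Log2 difference from the DMSO array (vertical axis) for 4 paralog pairs and for other members far from DMSO, with 1 bar per inhibitor (blue MG132, orange epoxomicin, green ONX0914) and dashed lines at -0.32 and 0.32. *Rpl22l1* reaches 0.58 with epoxomicin while its parent *Rpl22* stays between -0.055 and 0.075. There is 1 array per bar, hence no error bar.

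The stalk proteins, which recruit the elongation factors to the large subunit, stayed near DMSO. *Rplp0* had signals of 380769 in DMSO, 368344 under MG132, 414441 under epoxomicin and 381781 under ONX0914, and differences of 0.14, 0.10 and 0.043. *Rplp1* had signals of 306668, 294696, 304908 and 302154 and differences of 0.13, -0.028 and 0.018. *Rplp2* had signals of 323011, 303660, 333345 and 327051 and differences of 0.096, 0.026 and 0.057. Each of the 3 signals was lowest with MG132, and the positive differences with MG132 came with the lower percentile of that array.

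Members whose proteins are known to act on p53 gave differences of both signs. *Rpl5* and *Rpl11*, which bind Mdm2 together with a small ribosomal RNA, had signals of 66822, 66227, 73323 and 72622 and of 334546, 286649, 306530 and 313981. Their differences were 0.17, 0.11 and 0.16 for *Rpl5* and -0.038, -0.15 and -0.052 for *Rpl11*. With this scaling and the probes that stand for the genes, the partners of one complex lay on opposite sides of DMSO with all 3 inhibitors. With ONX0914 this depended on the probe, since the other 2 of the 3 *Rpl11* probes gave 0.019 and 0.034. *Rpl23*, also a ligand of Mdm2, had signals of 306423, 280147, 300979 and 295617 and differences of 0.056, -0.045 and -0.013. *Rpl26*, which binds the p53 mRNA, had signals of 114225, 108850, 117144 and 111047 and differences of 0.12, 0.017 and -0.0016. *Rps6*, the substrate of the S6 kinases, had signals of 175125, 166889, 191554 and 174274 and differences of 0.12, 0.11 and 0.032. *Rpl13a*, which in macrophages leaves the ribosome to block the translation of inflammatory mRNAs, had signals of 95248, 95714, 100670 and 99612 and differences of 0.19, 0.060 and 0.10. None of these 6 genes passed 0.32 by the probe that stands for it. By another probe, *Rpl13a* was 0.42 above DMSO with MG132 and *Rpl23* was 0.36 above it with epoxomicin.

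Members not yet named were above DMSO with all 3 inhibitors in most of the cases that had a common sign. *Rpl17*, with 7 probes, was one of them. The probe that stands for it gave signals of 98563, 99436, 113475 and 109442 and differences of 0.20, 0.18 and 0.19. All 7 of its probes were above DMSO on all 3 arrays, by 0.11 to 0.30 with MG132, 0.12 to 0.27 with epoxomicin and 0.062 to 0.26 with ONX0914. *Rpl41* showed the lowest epoxomicin value of the 74 genes, with signals of 265479, 222914, 220650 and 245090 and differences of -0.067, -0.29 and -0.076. *Rpl17* and *Rpl41* were singled out after their values had been seen.

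Genes of ribosomal or ribosome-bound proteins that the rule does not cover were looked up as well. They are *Rpsa*, *Fau* and *Rack1* of the small subunit and the ubiquitin fusion gene *Rps27a*. *Rpsa* had signals of 464094, 459572, 455602 and 439425 and differences of 0.17, -0.046 and -0.040. *Fau* had signals of 348873, 326171, 344089 and 320235 and differences of 0.088, -0.040 and -0.084. By these probes the difference of *Rpsa* and *Fau* was above 0 with MG132 alone, and it was below 0 there too without scaling. For *Rpsa* this depended on the probe, since its dimmest probe gave 0.085, 0.028 and 0.063. *Rps27a* had signals of 280264, 263468, 282591 and 278716 and differences of 0.096, -0.0077 and 0.031. *Rack1* had signals of 282440, 283964, 302285 and 281081 and differences of 0.19, 0.078 and 0.032. None of these 4 genes passed 0.32 by its brightest probe, whereas the dimmest probe of *Rps27a* gave 0.64 with MG132 and 0.59 with epoxomicin.

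Probes of one gene showed how far a single value could be trusted. The gene was represented by its brightest probe. Among 48 genes with several probes, the median range between the probes of a gene was 0.11 under MG132, 0.086 under epoxomicin and 0.090 under ONX0914. The widest range with ONX0914 was 0.72, for *Rps15a*. The dim probe of *Rps15a* had signals of 159, 200, 217 and 270 and differences of 0.52, 0.43 and 0.80, and the one that stands for it gave 0.13, 0.12 and 0.086. A dim probe of *Rps3* gave 0.65, 0.48 and 0.42, where the bright one gave 0.24, 0.11 and 0.076. In both genes it was the dim probe that stood apart.

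Of 139 member probes with a mean signal of at least 20000, 3.60% passed 0.32 under MG132, 0.719% under epoxomicin and 0% under ONX0914. Of 21 dimmer ones, 23.8%, 33.3% and 14.3% did. RefSeq lists 312 pseudogenes with names of this family, and whether a probe binds their transcripts was not tested.

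*Rpl23* had a probe that was printed in 10 spots. Its spots gave a mean difference of 0.25 under MG132, 0.36 under epoxomicin and 0.19 under ONX0914, with an SD of the difference between single spots of 0.050, 0.060 and 0.050. The signals behind them were 7345 in DMSO, 7702 under MG132, 9540 under epoxomicin and 8166 under ONX0914. The brighter probe of the same gene gave 0.056, -0.045 and -0.013, so that probes of one gene differed by more than the spots of one probe. Over the probes printed 10 times, the median SD between spots was 0.055 to 0.061 on the log2 scale. It holds for repeated spots of a single RNA sample and says nothing of other cultures.

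**Figure D3:**
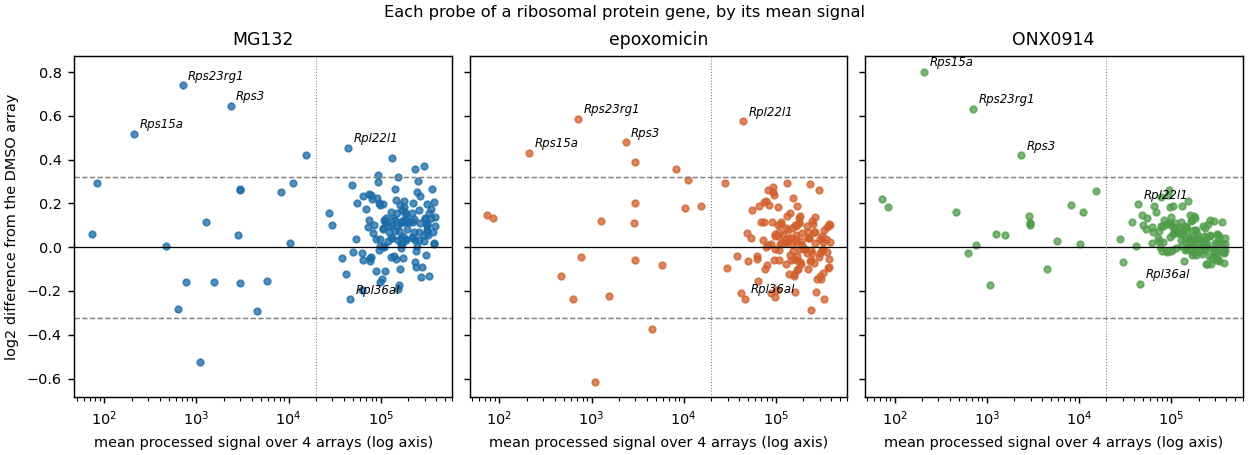
Log2 difference from DMSO (vertical axis) of each member probe that could be compared, against its mean processed signal over the 4 arrays (horizontal log axis), in 1 panel per inhibitor, with dashed lines at -0.32 and 0.32 and a dotted line at a signal of 20000. The bright probes form a tight group near 0. Beyond the dashed lines lie 5 bright and 5 dim probes with MG132, 1 and 7 with epoxomicin, and 0 and 3 with ONX0914.

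Within the brightest 1% of genes on the DMSO array, the other genes were spread more widely than the members. Of the 84 members, 62 (73.8%) were within the brightest 1% of genes on the DMSO array, which is 202 genes. The other 140 genes of that percent spread from the 10th to the 90th percentile over 0.88 under MG132, 0.85 under epoxomicin and 0.34 under ONX0914. For the 62 members the widths were 0.27, 0.21 and 0.16. Of the other genes, 20 were at least 0.32 higher and 25 lower with MG132, 14 and 28 with epoxomicin, and 5 and 1 with ONX0914. Of the 62 members, 2 were higher with MG132, and 0 passed otherwise. The difference between the sets was not tested, since genes are not replicates.

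Genes of ribosome assembly had medians further above DMSO than the ribosomal proteins. These lists and the other gene lists below were chosen with earlier results of these data known. For 20 genes of small subunit assembly and export, the median was 0.49 under MG132, 0.51 under epoxomicin and 0.18 under ONX0914. Of these, 12, 13 and 6 were at least 0.32 higher, and 0, 1 and 0 lower. Among all genes, 25.1%, 25.9% and 15.9% were higher and 26.1%, 27.4% and 15.1% lower. For 25 genes of large subunit assembly the medians were 0.42, 0.36 and 0.16, with 14, 13 and 7 higher and 1, 0 and 0 lower. Both lists kept a median above 0 and above that of all genes in each setting with each inhibitor. The order relative to all genes could hardly change under a shift of a whole array.

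*Riok2*, a kinase of late small subunit precursors, had signals of 5279 in DMSO, 11263 under MG132, 12637 under epoxomicin and 9152 under ONX0914, and differences of 1.28, 1.24 and 0.83. *Nmd3*, the adaptor that carries the large subunit out of the nucleus, had signals of 2353, 5303, 6826 and 3800 and differences of 1.36, 1.52 and 0.73. *Lsg1*, the GTPase that releases Nmd3, had 7770, 16829, 24438 and 11509 and differences of 1.30, 1.63 and 0.61. In these 3 genes, chosen after their values had been seen, the signal was lowest with DMSO and highest with epoxomicin. After scaling, *Riok2* was slightly higher with MG132 than with epoxomicin.

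The 29 genes of pre-rRNA processing had medians of 0.21, 0.21 and 0.10, with 13, 10 and 5 genes higher and 3 lower with each inhibitor. Among all genes 25.1%, 25.9% and 15.9% were higher and 26.1%, 27.4% and 15.1% lower. The 5 of 29 genes higher with ONX0914 are near that share. *Nop10*, of the pseudouridylation complex, was one of the lower genes, with signals of 17876, 6471, 8087 and 12424 and differences of -1.28, -1.16 and -0.49. The 11 genes of RNA polymerase I and its factors had medians of 0.27, 0.26 and 0.24. Of these, 5, 5 and 3 were higher and 0 lower, against the same shares of all genes. *Taf1d*, of the selectivity factor of this polymerase, had signals of 2936, 9229, 12585 and 4137 and differences of 1.84, 2.08 and 0.53. *Nop10* and *Taf1d* were also chosen after their values had been seen.

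**Figure D4:**
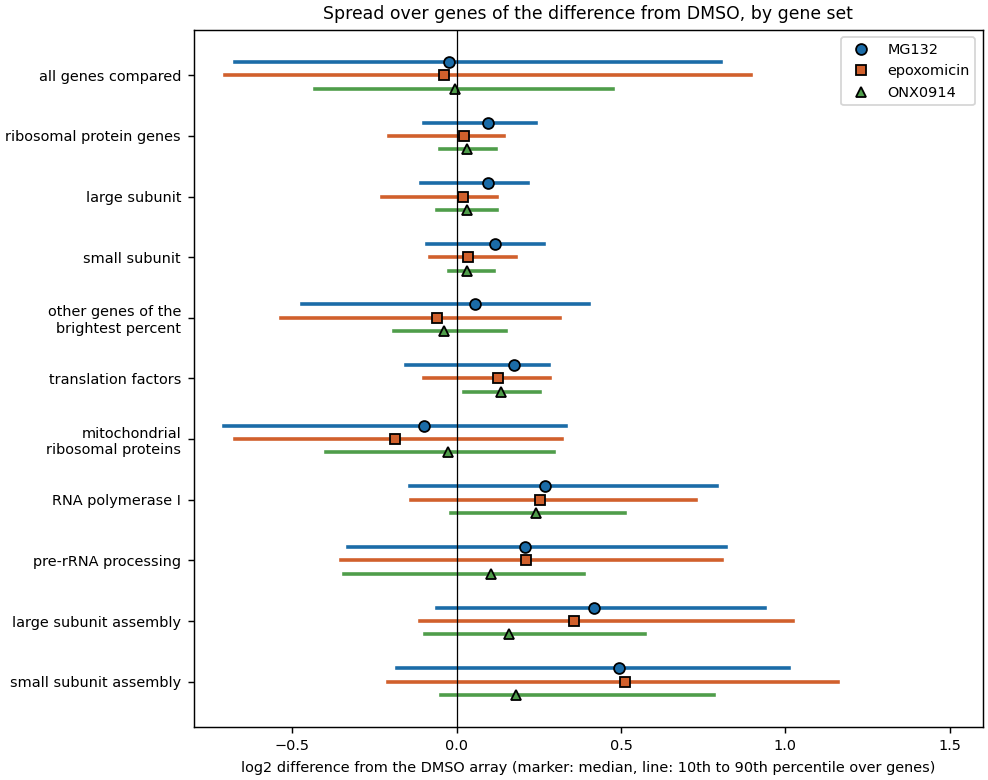
Median (marker) and 10th to 90th percentile over genes (line) of the log2 difference from the DMSO array, for all genes compared, the ribosomal protein genes, their subunits and other sets, with 1 line per inhibitor. The lines of the ribosomal protein genes are short and near 0, and those of the translation factors are short as well. Those of the assembly lists reach to the right.

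The mitochondrial ribosomal proteins, which form a separate ribosome for the mRNAs of the mitochondrial genome, were more widely spread than the cytosolic ones. Within 0.32 lay 50.6%, 50.6% and 80.5% of them, where 48.8%, 46.6% and 68.9% of all genes did. The part of brightness in the spread was not tested. Of 78 such genes 77 could be compared, and the medians were -0.10 under MG132, -0.19 under epoxomicin and -0.028 under ONX0914, the last of which was above 0 in some settings. Of these, 10, 8 and 5 were at least 0.32 higher and 28, 30 and 10 lower, where the shares of all genes were 25.1%, 25.9% and 15.9% higher and 26.1%, 27.4% and 15.1% lower. 6 were 2-fold lower under MG132, 4 under epoxomicin and 0 under ONX0914, against 3.69%, 4.41% and 1.4% of all genes. The counts with epoxomicin and ONX0914 are near those shares. *Mrpl41*, the lowest with epoxomicin and therefore picked by its value, had signals of 7557, 2468, 2808 and 4021 and differences of -1.43, -1.45 and -0.87. Its dimmest probe gave -0.25, -0.38 and -0.34, so that the 2-fold difference was not shared by its probes. No test separates both families, with 1 array per condition.

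Translation factors whose mRNAs carry the same pyrimidine tract were taken from a list of 15 genes, also chosen with earlier results of these data known. They had medians of 0.18, 0.12 and 0.13, with 0, 1 and 1 at least 0.32 higher and 0 lower. After normexp background correction with an offset of 50, 8, 7 and 5 of them were higher, and with the outlier spots left out of that fit 0, 1 and 1 were. With MG132 the median was -0.0098 at the lowest of the settings. The 15 genes of stalled ribosome rescue had medians of 0.016, 0.14 and 0.017, with 3, 3 and 0 higher and 2, 2 and 0 lower. The sign of the first and the last median changed with the setting. For both lists, the shares of all genes were 25.1%, 25.9% and 15.9% higher and 26.1%, 27.4% and 15.1% lower. The 3 of 15 rescue genes higher with MG132 and with epoxomicin are near those shares.

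The mTOR list, with 16 genes, held the only list members that were 2-fold or more from DMSO with all 3 inhibitors. *Ddit4*, an inhibitor of mTOR complex 1 that is made under stress, had signals of 9238 in DMSO, 90998 under MG132, 71349 under epoxomicin and 45491 under ONX0914. It was 11.2-, 7.62- and 5.06-fold higher, or 3.49, 2.93 and 2.34 on the log2 scale. *Eif4ebp1*, a repressor of cap-dependent translation that mTOR controls, had signals of 21685, 50876, 59201 and 47683 and differences of 1.42, 1.43 and 1.18. Its relative *Eif4ebp2*, chosen after its values had been seen, had 7221, 2605, 2717 and 4141 and differences of -1.29, -1.43 and -0.76. *Larp1*, which binds the pyrimidine tract, was also chosen after its values had been seen. It had signals of 28662, 36541, 42619 and 33123 and differences of 0.54, 0.55 and 0.25. Its dimmest probe gave 0.70, 0.16 and 0.23, so that the value with epoxomicin depended on the probe. The list had medians of 0.24, 0.35 and 0.12, with 7, 8 and 4 genes at least 0.32 higher and 2 lower with each inhibitor. Among all genes, 25.1%, 25.9% and 15.9% were higher and 26.1%, 27.4% and 15.1% lower. The 2 of 16 genes lower with ONX0914 are near that share.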

How the data were processed

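The authors deposited the scanner output of 4 single-color arrays (Feature Extraction 10.7.1.1), with spot intensity after background subtraction within the array and 0 or 1 calls per spot. The authors also deposited log2 values made with GeneSpring, which appear relative to each probe's median and were used as an alternative only. The Methods name a human design, while the file headers describe a mouse design (mm9), and no coordinates of the files were used. Because no gene symbols were read from the scanner files, probes were named by matching transcript accessions to mouse RefSeq (GRCm38.p6), which named 26581 of 39429 probes.

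Control spots were left out, which left 43020 spots per array, and of these 159 to 194 outlier spots were left out as well. The log2 signal minus the 75th percentile of the array was used. A gene was represented by its brightest probe. It entered where it was well above background on 1 of the arrays compared, with a bound (its own signal or the lowest spot well above background, whichever was higher) on the dimmer array. Genes were counted at 1.25-fold (0.32 on the log2 scale) and at 2-fold, without a test. The members and lists were chosen with earlier results of these data known. Named genes were the 5 highest and the 5 lowest members by the median of the 3 differences, members not well above background on all arrays, the stalk proteins, paralogs with their parents, *Rpl5*, *Rpl11*, *Rpl23*, *Rpl26*, *Rps6*, *Rpl13a*, *Rps19bp1* and ribosomal proteins outside the rule. From other lists, genes 2-fold from DMSO with all 3 inhibitors were named. Other genes are said to be chosen after their values had been seen. Values of 2 genes are not reported here.

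The alternatives were normexp (offset 50, on the median pixel signal), quantile normalization, cyclic loess, a median shift, a percentile over detected spots, no scaling, the authors' table, other probe choices, a stricter filter, outlier spots kept, fewer members and a 2-fold threshold. 2 were added after the data had been seen, normexp without outlier spots and the members without *Rps19bp1* and *Rps23rg1*. Differences that shifted by 0.086 or more, and counts that shifted over 1.5 times, are said to have moved. The number of arrays limits the precision. The calculations were tested on simulated data, with Python 3.11.15, numpy 2.4.6, pandas 2.3.3, matplotlib 3.10.9, R 4.3.3 and limma 3.58.1.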

Additional observations from a re-analysis of the deposited data

How the results depend on the processing

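The difference between the subunits did not move in any of the alternatives, but the cut for a move was wider than the difference itself. A shift of a whole array cancels in large minus small. The median shift, the percentile over detected spots and no scaling therefore had to return the same value. Over all settings the sign changed with epoxomicin (-0.032 to 0.011) and ONX0914 (-0.0071 to 0.0059), and with MG132 it did not (-0.054 to -0.0019). No named gene beyond 0.32 on the log2 scale changed its direction. The members' median moved in 6 cases. Under normexp it was 0.252, 0.184 and 0.170 for MG132, epoxomicin and ONX0914, where the median of all genes was -0.28, -0.29 and -0.17. With MG132 it was 0 after quantile normalization, -0.0042 after the median shift and -0.088 without scaling. The median shift moved the median of all genes to -0.12 with MG132 and epoxomicin, and no scaling moved it to -0.20 with MG132.

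Counts past 0.32 are small and moved more often. Under normexp, 18, 7 and 5 members were higher and 2, 2 and 1 lower with MG132, epoxomicin and ONX0914. When outlier spots were left out of the normexp fit, 0 were lower with epoxomicin and 1 with ONX0914. With MG132, quantile normalization gave 3 higher and 2 lower, the median shift 2 and 3, and no scaling 1 and 5. With epoxomicin, 2 were lower after quantile normalization, the median shift and the percentile over detected spots, and 4 were higher after cyclic loess, which gave 1 lower with ONX0914. The mean over probes gave 2 higher with ONX0914. The dimmest probe gave 8 higher and 2 lower with MG132, 6 and 3 with epoxomicin, and 3 higher with ONX0914. With genes measured on all arrays, 0 were lower with MG132 and epoxomicin. Without paralogs and *Rps19bp1*, 0 were lower with MG132, and 1 was higher and 0 lower with epoxomicin. Without *Rps19bp1* and *Rps23rg1*, 1 was higher with epoxomicin and 0 with ONX0914. At 2-fold all counts were 0. Where genes were left out or the threshold was raised, the setting itself accounts for the change, and for the others the cause was not tested. Probes were not restricted to those with 2 matching symbols, since no second symbol was read. No paired analysis was possible because each condition had 1 array.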
